A study of Arabidopsis thaliana with 2 samples.

Results

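DREB-type genes of Arabidopsis thaliana were examined in a list of ERF115 binding peaks. They were the cold regulator CBF1 (AT4G25490), its tandem copy DREB1A (AT4G25480, also called CBF3), CEJ1 (AT3G50260, also called DEAR1) and RAP2.4 (AT1G78080, also called WIND1). These 4 genes were taken by locus and selected on the presence of an assigned peak, or, for DREB1A, on lying beside a gene with one. The peaks that the authors assigned to them were 4 of the 612 in the list. CEJ1 had 2 peaks, CBF1 and RAP2.4 had 1 each, and DREB1A had none, so 3 of the 4 genes had a peak. Over the genome 2.06% of the 27444 nuclear protein-coding genes had one. Because the genes were chosen by their peaks, nothing is read from that contrast, and their scores, labels and positions are given below as a description without a test.

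The ERF115-HBH sample was 1 library from dark-grown PSB-D suspension cells of the Landsberg erecta ecotype with the genotype 35S::ERF115-HBH. This construct drives ERF115 from a constitutive viral promoter with the HBH tag fused to it. The mock sample was 1 library from wild-type cells of the same culture type. Both were fixed with 0.75% formaldehyde for 10 minutes, 2 days after subculturing, and the tagged protein was recovered by tandem affinity purification on nickel and streptavidin beads. Only the peak list of the ERF115-HBH library was used, so the values have no replicate and no error, and the mock library's own signal at these genes was not analysed here. Because ERF115 was made from the 35S promoter in cultured cells, the list describes where the tagged protein was recovered in these cells and says nothing on the expression of the genes.

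ERF115 and the 4 genes all encode AP2/ERF transcription factors, a plant family named after its DNA-binding domain. DREB-type members bind the dehydration-responsive element, also called the C-repeat, whereas ERF-type members are best known for binding the GCC-box. CBF1 and DREB1A are activators that cold induces within a short time and that switch on cold-acclimation genes. CEJ1 carries an EAR motif, a short stretch found in transcriptional repressors. RAP2.4 is the wound-induced factor WIND1, known for promoting callus formation and cell dedifferentiation.

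CBF1 lay at the lower edge of the list. Its peak, at chr4:13021312-13022608 in the TAIR10 build, had a MACS score of 50.74, rank 601 of 612. The score is 10 times the negative log10 of the p-value that the peak caller gives, so 50.74 stands for a caller's p of 8.43e-06. Whether the caller compared the library with the mock is not stated in the labels or headers, so what this p is measured against is unknown. Among all peaks 11 scored lower, down to the minimum of 50.01, where the caller's p is 9.98e-06. The CBF1 peak was thus 0.730 score units inside the list, and 21 peaks, or 3.43%, lay within 1 unit of the minimum. By score the peak stood between those at MPL1 (50.75), an aphid-induced lipase gene, and SPHK1 (50.64), a sphingosine kinase gene. It was labelled coding 3', a label of 64 peaks of which it ranked 63. Among the 74 peaks of chromosome 4 it ranked 71.

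DREB1A had no assigned peak, and the nearest one was that of CBF1, the gene directly beside it in gene order. CBF2 (AT4G25470), the remaining copy of this tandem array, lies on the other side of DREB1A and had none either. The gene on the far side of CBF1, RS40, which encodes a splicing factor, also had none. The cold-responsive array therefore had 1 peak at 1 of its 3 genes. These copies are closely related in sequence, and the sources used here do not say how reads matching more than 1 copy were treated. The assignment of the peak to CBF1 rather than to a neighbouring copy is uncertain for that reason.

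The CBF1 peak was far from any other. The nearest peak on the lower-coordinate side, at AT4G24110 with a score of 58.79, ended 500.4 kb away. On the other side the nearest, at AT4G27450 with a score of 61.76, began 707.5 kb away. The stretch of 1209.2 kb between these peaks held 359 protein-coding genes and, apart from that of CBF1, no peak. Across all peaks the median distance to the nearest other peak was 37.4 kb (quartiles 11.2 and 95.0 kb), and on chromosome 4 it was 57.7 kb. Only 14 of the 612 peaks, 3 of them on chromosome 4, were more isolated than the CBF1 peak. Both flanking peaks also had scores below the list median of 78.94.

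CEJ1 was 1 of 4 loci with more than 1 peak. The peak with the lower score, 60.33 (rank 463, caller's p of 9.27e-07), lay at chr3:18632252-18633733 and was labelled intergenic 5'. The other, with a score of 78.8 (rank 310, caller's p of 1.32e-08), lay at chr3:18634157-18635804 and was labelled coding 3'. The peak in the gene body was thus close to the middle of the list, and the upstream peak was in its lower part, with 24.2% of peaks scoring less. The scores stood 18.5 units apart, a ratio of 1.31 in favour of the coding 3' peak. With 1 library it cannot be said whether this difference is larger than the variation between experiments.

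The CEJ1 peaks were separated by 423 bp and together spanned 3553 bp, with 2021 bp between the positions the authors gave for them. Among the 607 pairs of consecutive peaks this gap was the 10th narrowest. The other loci with 2 peaks, named after their values were seen, were XTH30, a xyloglucan wall enzyme gene, SAUR21, the label the names table gives to AT5G01830, and PFD3, a prefoldin subunit gene. AT5G01830 had the same pair of labels as CEJ1, with scores of 97.11 for its intergenic 5' peak and 50.78 for its coding 3' peak. There the upstream peak was the higher, the reverse of CEJ1. XTH30 had both peaks on the intergenic 5' side and PFD3 both on the intergenic 3' side.

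Both CEJ1 peaks carry the mark TP, in a column that the authors' deposited table heads DE. The mark is given to 22 peaks at 21 loci (3.59% of peaks). No label explains the mark or the heading, or says whether it belongs to the peak or to its gene. CEJ1 was the 1 marked locus with 2 peaks. No other peak of the listed DREB or ERF-type genes was marked. Marked peaks scored from 57.64 to 270.26 with a median of 84.1, and 3 of them scored below the upstream CEJ1 peak. The neighbouring peak on the lower-coordinate side, 114.9 kb away at LBD38, a regulator of nitrogen responses, was marked as well, with a score of 69.39.

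On the higher-coordinate side the next peak lay 12.4 kb from CEJ1, at MAPKKK20, a mitogen-activated protein kinase kinase kinase gene, with a score of 81.46 and the label coding 5'. The genes directly beside CEJ1, AT3G50250 and AT3G50270, had none. Within 500 kb on each side of the upstream CEJ1 peak there were 11 other peaks, including the second CEJ1 peak, against a median of 7.00 around all peaks. Their median score was 69.55, between a lowest of 57.65 and a highest of 181.32. CEJ1 was therefore in a stretch with more peaks than CBF1, which had 0 within the same distance.

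RAP2.4 had the highest score of the DREB genes. Its peak, at chr1:29362227-29363647 and labelled intergenic 5', scored 139.04, which is 1.76 times the list median and stands for a caller's p of 1.25e-14. It ranked 97 of 612, 43 of the 275 intergenic 5' peaks and 22 of the 143 peaks of chromosome 1. By score it stood between AT1G62301 (139.23) and the microRNA gene MIR158a (138.16), both also with an intergenic 5' label.

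The RAP2.4 peak had a neighbour with a higher score almost in contact with it. A peak at chr1:29358902-29362158, assigned to AT1G78070 as intergenic 3', ended 68 bp before it and scored 181.56, rank 46. This was the second-narrowest gap of the 607 consecutive pairs, after the 26 bp between the peaks of AT1G72500 and AT1G72510. AT1G78070 is the gene directly beside RAP2.4, so both peaks were assigned to the genes on either side of the same intergenic stretch. Together they spanned 4746 bp, of which the AT1G78070 peak took 3257 bp, and the positions the authors gave for them lay 2017 bp apart. A different assignment of the larger peak would give RAP2.4 a higher score and a second peak. Which gene either peak acts on was not tested.

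On its other side RAP2.4 had no peak at TPPB, a trehalose-6-phosphate phosphatase gene directly beside it, and the next one, at AT1G78210, scored 175.15 and lay 58.8 kb away. Within 500 kb of the RAP2.4 peak there were 5 other peaks, fewer than the median of 7.00. All 5 were high, with scores from 119.64 to 198.95 and a median of 175.15. The lowest of them exceeded the scores of CBF1 and of both CEJ1 peaks.

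**Figure D1:**
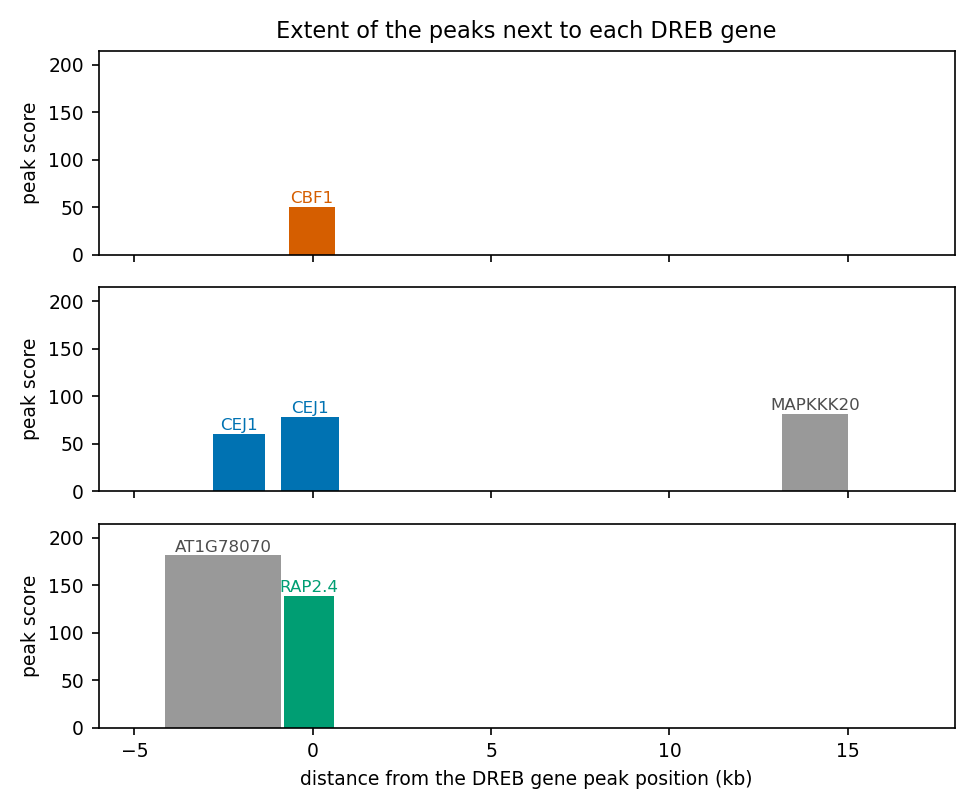
Extent (horizontal, in kb from the authors' position in the DREB gene peak, the coding 3' peak for CEJ1) and MACS score (height) of the peaks at CBF1, CEJ1 and RAP2.4, in colour, and of other peaks in the same window, in grey. The window runs from 6 kb on the lower-coordinate side to 18 kb on the other. CBF1 has no neighbour in it, the CEJ1 peaks are 423 bp apart, and the RAP2.4 peak is 68 bp from the higher-scoring peak of AT1G78070.

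Set in order of score, the DREB gene peaks ran from rank 97 to rank 601 of the list. RAP2.4 at 139.04 was followed by the coding 3' peak of CEJ1 at 78.8, the intergenic 5' peak of CEJ1 at 60.33 and CBF1 at 50.74. Their median of 69.56 lay below the 79.00 of the other 608 peaks, but with no replicate the size of this gap has no error. The score of RAP2.4 was above 84.2% of all peaks and that of CBF1 above 11 peaks.

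**Figure D2:**
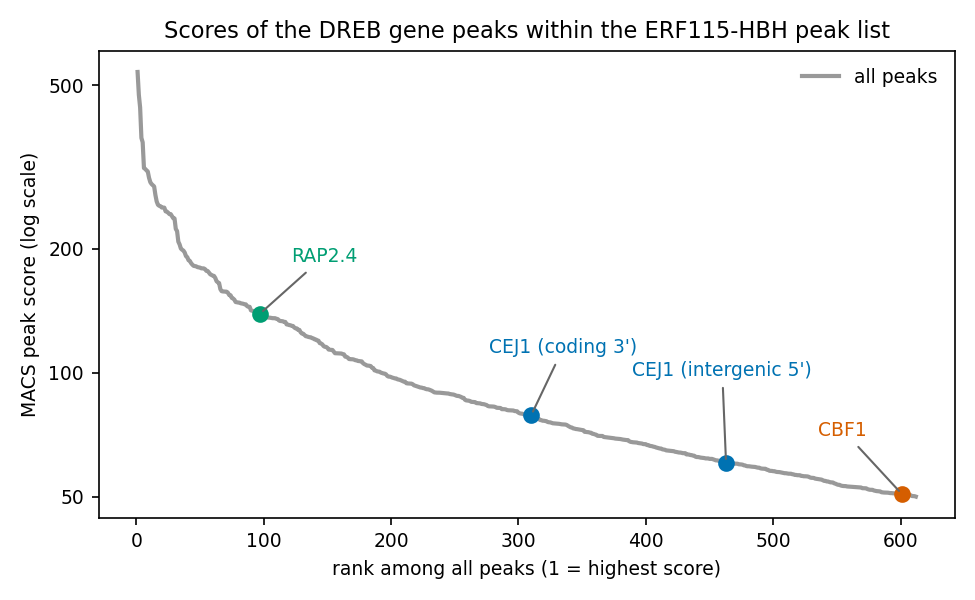
MACS score (log scale) against rank for all 612 peaks (grey line), with the peaks of RAP2.4, CEJ1 and CBF1 as labelled points. RAP2.4 sits at rank 97, the CEJ1 peaks at ranks 310 and 463, and CBF1 at rank 601, close to the end of the list.

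The 4 peaks were alike in width, and their read profiles were not analysed. They were 1297 bp (CBF1), 1482 bp (CEJ1, intergenic 5'), 1648 bp (CEJ1, coding 3') and 1421 bp (RAP2.4) wide, all under the list median of 1894 bp. CBF1 was wider than 17.2% of all peaks and the coding 3' peak of CEJ1 wider than 38.9%. The other DREB genes with a peak, listed below, did not all share this. AT1G63040 at 1215 bp was under the median, and RAP2.9 at 2070 bp and AT5G52020 at 4500 bp were over it. The position given by the authors lay 15 bp from the midpoint of the CBF1 peak, 45.5 and 78.5 bp from those of the CEJ1 peaks, with the intergenic 5' peak first, and 104.0 bp from that of the RAP2.4 peak. Over the list the median offset was 209 bp, but it was 34.5 bp for the 239 peaks no wider than 1648 bp and 437.0 bp for the wider ones. The offsets of the 4 peaks were thus nearer to that of the narrow peaks. Width did not separate the 4 peaks by score, as RAP2.4 had the highest score and the second-narrowest of the 4 peaks.

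**Figure D3:**
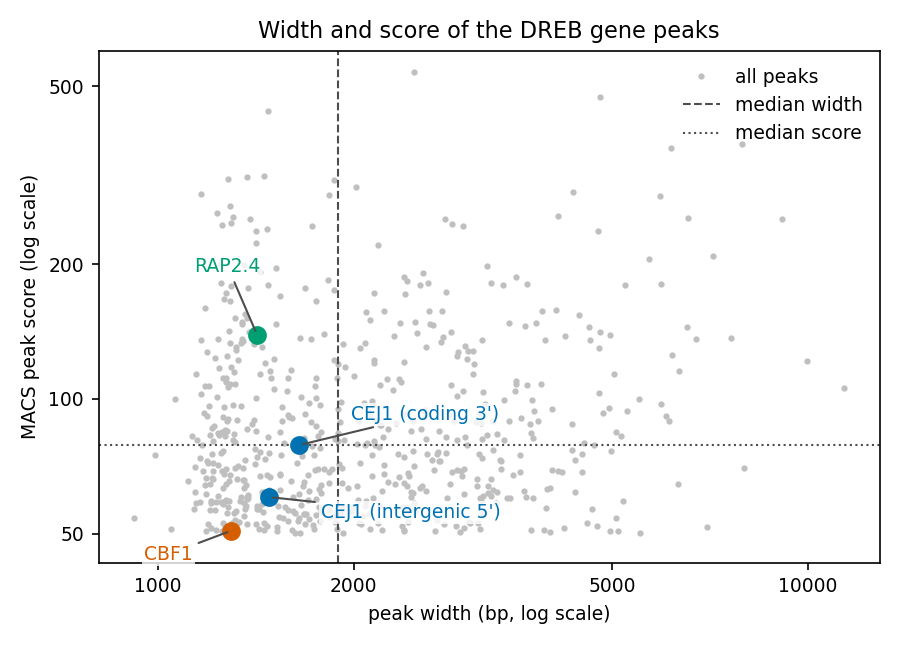
Peak width in bp against MACS score, both on log scales, for all 612 peaks (grey), with the peaks of CBF1, CEJ1 and RAP2.4 in colour. Lines mark the median width of 1894 bp (dashed) and the median score of 78.94 (dotted). All 4 coloured points lie left of the median width, and RAP2.4 lies above the median score.

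The labels divided evenly between upstream and gene-body positions. RAP2.4 and 1 CEJ1 peak were intergenic 5', the label of 275 of 612 peaks or 44.9% (95% Clopper-Pearson interval 40.9 to 49.0%, counting error only). CBF1 and the other CEJ1 peak were coding 3', the label of 64 peaks or 10.5% (8.15 to 13.2%). Both intervals treat peaks as independent draws and do not measure variation between libraries. No DREB gene peak was labelled intron or intergenic 3'. Scores did not follow the label, since each label held 1 of the higher and 1 of the lower DREB scores.

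**Figure D4:**
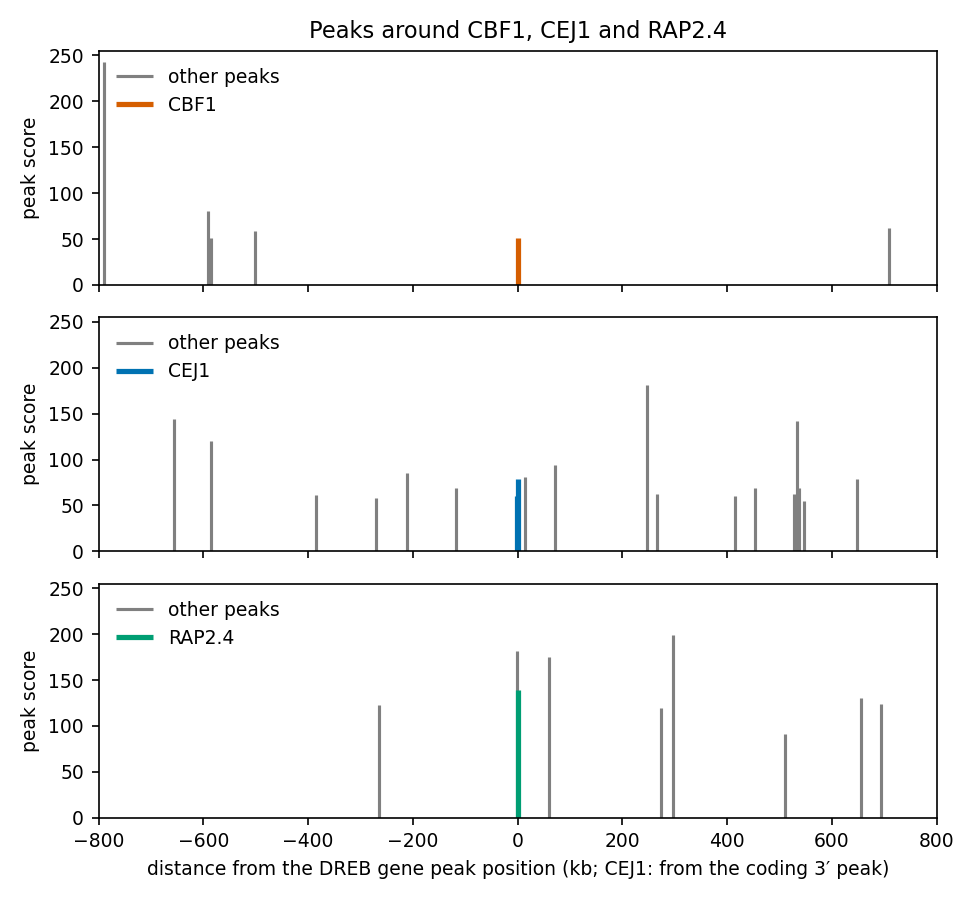
MACS score of every peak within 800 kb of the peaks of CBF1, CEJ1 (from its coding 3' peak) and RAP2.4, against distance in kb. Within 500 kb the CBF1 peak has no other peak, whereas CEJ1 has 11 and RAP2.4 has 5. The 5 around RAP2.4 each score at least 119.64, and a peak farther out scores 91.72.

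To place these genes in their family, 57 genes of the DREB groups A-1 to A-6 were examined, a list drawn from general knowledge of the family with the CBF1, CEJ1 and RAP2.4 results known. Of these, 6 had a peak (10.5%), beside the 2.06% of all nuclear protein-coding genes. The members chosen for their peaks make up 3 of the 6. Without CBF1, DREB1A, CEJ1 and RAP2.4 the count was 3 of 53 (5.66%), and without AT1G63040, a transcribed pseudogene in the names table, it was 2 of 52 (3.85%). The table gives the intended name for 25 of the 57, and 4 of these had a peak (16.0%). They were CBF1, CEJ1, RAP2.4 and RAP2.9, and all but RAP2.9 were chosen for their peaks.

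The genes with a peak were spread over 4 of the groups. In A-1, the CBF group, it was CBF1 alone, with no peak at DREB1A, CBF2, CBF4, DDF1 or DDF2. In A-5, the group of CEJ1, RAP2.9 (AT4G06746, also called DEAR5) was the other gene with a peak, out of 15. Its name DEAR5, like the name DEAR1 of CEJ1, refers to an EAR motif. Its peak lay at chr4:4073220-4075289, was labelled intergenic 5' and scored 54.61, rank 540. In A-4, AT5G52020 had a coding 3' peak with a score of 68.72 and AT1G63040 a 5' UTR peak with a score of 66.04. In A-6 RAP2.4 was the single gene of 10 with a peak. None of the 8 A-2 genes, among them the drought and heat regulator DREB2A, had one, nor did ABI4, the A-3 gene. At the 2.06% of all genes with a peak, groups this small would mostly hold none, so nothing is read from these absences. Of the listed DREB genes with a peak, RAP2.4 was the 1 with a score above the list median. It was also the 1 gene left among the 306 peaks of highest score, which fell on 1.04% of all protein-coding genes, and among peaks scoring at least 100, which fell on 0.656%. With peaks of a 5' label alone, 4 of the 57 were counted (CEJ1, RAP2.4, RAP2.9 and AT1G63040), beside 1.36% of all genes. Without the genes chosen for this report the count was 2 of 53 (3.77%), and without AT1G63040 as well 1 of 52 (1.92%).

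Counting the genes directly beside one with a peak, 10 of the 57 DREB genes were included, with 5.93% of all protein-coding genes. The 10 hold CBF1, DREB1A, CEJ1 and RAP2.4, which were chosen by their peaks or by lying beside one. Without these 4 genes the count was 6 of 53 (11.3%), and without AT1G63040 as well it was 5 of 52 (9.62%). Besides DREB1A, the added genes were DREB19 next to AT2G38350 (score 129.99), AT3G60490 next to AT3G60480 (score 255.83) and DEAR2 next to TOE3 (score 51.95). DEAR2, also a DREB gene with an EAR motif, was thus beside a peak that the authors gave to another AP2 family gene. This count uses the order of protein-coding genes and so leaves out DDF2, which lies next to the pseudogene AT1G63040 and its peak (score 66.04).

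Of the cold pathway around the CBF genes, a partial list of 29 genes was examined, which leaves out the DREB genes themselves. None of the 29 was assigned a peak. Among all genes 2.06% had one, a share at which a list of this size would hold few or none. The 15 regulators upstream of CBF genes included ICE1, CAMTA3, HOS1, OST1 and MYB15. The 14 cold-induced genes included COR15A, KIN1, RD29A, COR47 and GOLS3, which DREB factors are known to switch on. Depth is unknown, so the lack of a peak does not show a lack of binding. No listed gene was directly beside a gene with a peak in the order of protein-coding genes either.

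Of 24 listed ERF-type genes, 7 had a peak (29.2%), beside the 2.06% of all protein-coding genes. The list holds only part of this branch of the family, without ERF115 itself, and was also drawn up with peak results known. Its share therefore does not stand for the branch, and nothing is read from its difference to the share of the DREB list. The scores of its peaks overlapped those of the DREB genes, from 59.02 at ERF10 to 139.6 at ERF12, with a median of 75.90. ERF12 ranked 95, next but one above RAP2.4. In the order of protein-coding genes, listed AP2/ERF genes stood side by side in 4 places, and these differed in how many copies had a peak. In the CBF2, DREB1A and CBF1 array it was 1 of 3, at ERF6 and ERF-1 it was both, at ERF12 and ERF11 it was ERF12, and at DREB2C and AT2G40350 it was neither. The pseudogene AT1G63040, with its peak, and DDF2 beside it are not counted among these places.

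**Figure D5:**
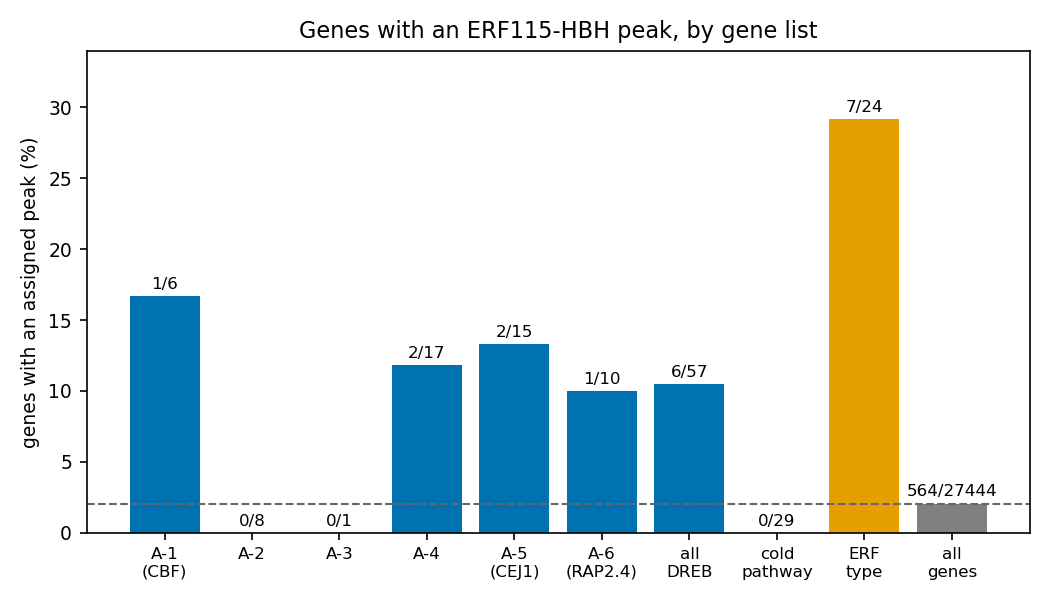
Percentage of genes with an assigned peak in the DREB groups A-1 to A-6, the DREB, cold-pathway and ERF-type lists, and all nuclear protein-coding genes. The number of genes with a peak over the number listed stands above each bar. The dashed line marks the 2.06% of all genes. Groups of few genes move in large steps, and the A-1, A-5 and A-6 bars each hold a gene chosen for its peak. The bar of all listed DREB genes holds these same chosen genes. The ERF-type list is partial and was drawn up with peak results known.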

How the data were processed

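The authors' deposited files hold 612 peaks of the ERF115-HBH library with a peak score and an annotated copy with 1 locus, label and position per peak. The submitters' processing notes list MACS 1.4.2 as well as BWA 0.5.9, Picard, SAMtools 0.1.18 and CASAVA 1.8.2, with build TAIR10. The sources used here state no parameters or filters, nor whether the mock library was the control in peak calling. The score was not scaled between libraries and was used only within this list, and the deposited Z score restates it. Read counts were not analysed here, so depth is unknown.

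Distances, widths, ranks and gene-list counts were computed with Python 3.11.15 and pandas 2.3.3, and checked on simulated peaks. Peak coordinates are 1-based. Names and gene order came from a RefSeq table of TAIR10.1, which holds 600 of the 608 assigned loci. Its start coordinates served only to put the genes in order along each chromosome. Of the 110 listed genes it gave the intended name for 78. No promoter or protein sequence was used. Genes named are the members, listed genes with a peak, neighbours in score, position or gene order, and loci noted as named after their values were seen. Members and lists were chosen with earlier results of these data known. With 1 library per group no test was made. Alternatives covered score thresholds, labels, adjacent genes and how distance is measured.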

Additional observations from a re-analysis of the deposited data

How the results depend on the processing

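No paired analysis was possible because there is a single library in each group, so no replicate could be left out either. Ranked by width instead of score, RAP2.4 moved to 440, the intergenic 5' and coding 3' peaks of CEJ1 to 415 and 374, and CBF1 to 506. Among the top 306 peaks by score, and with a minimum score of 100, 1 of the 4 genes was left in place of 3, and 1 of the 57 listed DREB genes in place of 6. In both cases it was RAP2.4, beside 1.04% and 0.656% of all protein-coding genes. With 5' labels only, the counts were 2, a setting added after the data were seen, and 4, beside 1.36%. With adjacent genes counted they were 4 and 10, beside 5.93%. Without the 4 chosen genes and AT1G63040, the listed DREB count was 1 of 52 with 5' labels (1.92%) and 5 of 52 with adjacent genes (9.62%). The cold-pathway count was 0 throughout. Measured between the authors' positions, the nearest peak lay 2.02 kb from RAP2.4, 2.02 kb from each CEJ1 peak and 501.7 kb from CBF1. Between midpoints these distances were 2.41, 1.99 and 501.7 kb. Ranking by fold enrichment or tag count, motif searches and protein identity were not run, since no such values or sequences were used here. Unknown depth and 1 library per group limit what a peak near the minimum score, or its absence, can show.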
